A study of Mus musculus with 5 samples.

Results

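The cytosolic ribosomal protein genes were taken as all genes whose single symbol on the array platform begins with Rpl or Rps followed by a digit, together with Rpsa and Rplp0, Rplp1 and Rplp2, leaving out the Rps6k kinases and pseudogene symbols. This rule found 73 of the 9050 genes with a single symbol, and all 73 were among the 8452 genes that had a value on all 5 arrays. By name, 45 of these belong to the large subunit, 25 to the small subunit and 3 to the stalk of the large subunit. They were read by 292 probes, of which 271 had a value on all 5 arrays, with 1 to 12 such probes per gene (median 3). The rule also took in 6 paralogs (Rpl3l, Rpl7l1, Rpl22l1, Rpl36al, Rpl39l and Rps27l), the retrogene Rps23rg1, and Rps19bp1, which encodes a protein that binds Rps19 and is not itself a ribosomal protein. The probes are cDNAs, and signal from near-identical paralogs or processed pseudogenes cannot be separated from that of the named gene.

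The macrophages had been derived from bone marrow of C3H/HeJ mice. This strain carries a mutated Tlr4 and is hyporesponsive to lipopolysaccharide (LPS). Cells in all 5 groups had been grown in culture with human CSF-1, the macrophage growth factor. The groups were no exposure (0 h) and exposure for 0.5, 2, 7 or 21 h to 10 µg/ml LPS of S. minnesota, with 1 two-colour cDNA array per group. The other channel of every array held total RNA of whole C57BL6/J embryos of 17.5 days. With 1 array per group there was no replicate and no test, and no p-value is given. The only error available is the SD among a gene's probes, which holds no spread between mice, cultures or hybridisations. Values are centred log10 ratios, so that 0 is the ratio of the median gene on that array. A difference of at least 2-fold (0.301 on the log10 scale) was counted as past the size rule. The direction, macrophage over embryo, is likely and not stated: of 8 measured macrophage markers 6 lay above 0 at 0 h, and of 16 measured markers of embryo tissues 15 lay below 0. Markers of fibroblasts (7 measured), of T, B and NK cells (4) and of neutrophils and mast cells (7) had medians of -0.52, -0.26 and -0.27 at 0 h. The log base is not stated either, and all folds rest on base 10. The array at 0.5 h stood apart, with a correlation of 0.48 with the 0 h array across probes against 0.75 to 0.85 for the later arrays, and with 1104 missing probe values against 154 to 257 on the others.

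The ribosome is built from ribosomal RNA and a fixed set of proteins, most of them present in 1 copy per particle. The small subunit binds the messenger RNA and decodes it. The large subunit joins the amino acids, releases the chain through an exit tunnel, and carries a flexible stalk that recruits the elongation factors. The messenger RNAs of these proteins are among the most abundant in a cell. They typically start with a run of pyrimidines (C and T in DNA letters), the 5' terminal oligopyrimidine motif, through which growth signals acting by way of mTOR control their translation. Arrays of total RNA measure the amount of these messengers and not how well they are translated.

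The sequence around the transcription start is shown for 5 standard members, because this pyrimidine run is the feature the family is known for. Each line gives 15 bases before and 15 bases after the start on the strand of the gene, 5' to 3', in RefSeq's GRCm38.p6 annotation, with pyrimidine runs of 6 or more bases in capitals.
Rps6, chr4:86857353-86857382, minus strand: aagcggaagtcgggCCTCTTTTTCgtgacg
Rplp2, chr7:141447636-141447665, plus strand: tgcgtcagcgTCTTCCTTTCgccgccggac
Rpl7a, chr2:26910792-26910821, plus strand: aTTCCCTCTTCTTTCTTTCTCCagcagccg
Rpl35, chr2:39005117-39005146, minus strand: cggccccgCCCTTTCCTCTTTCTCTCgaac
Rpl15, chr14:18270972-18271001, minus strand: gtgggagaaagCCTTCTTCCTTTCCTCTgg
These runs lie across or beside the start in genes of both subunits and of the stalk. Of the 73 members, 60 had a promoter sequence in the table used. A run of 6 or more pyrimidines lay within 15 bases of the start in 31 of the 60 (51.7%), beside 29.1% of 27022 promoters of all genes. In the wider 300 bases (250 before and 50 after the start), the letters CCGGAAG, the core bound by ETS family factors, stood on either strand in 24 of the 60 (40%) against 9.12% of all promoters. CTTTCC, which can overlap a pyrimidine run, stood on either strand in 29 (48.3%) against 26.3%, and the TATA box letters TATAAA in 6 (10%) against 14.2%. The 31 members with the run and the 29 without it had median ratios over the 0, 2, 7 and 21 h arrays of -0.18 and -0.18. Their median differences from 0 h were 0.0044 and 0.14 (0.5 h), -0.083 and -0.074 (2 h), 0.055 and 0.039 (7 h), and -0.0012 and 0.065 (21 h), with no test of either. The 24 members with CCGGAAG had a median of -0.17 and the 36 without it -0.18. A match describes these letters and not a bound site, and these annotated starts may not be those used in macrophages.

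Ribosomal protein messengers stood a little below the median gene in macrophages relative to whole embryo. The median of the 73 members was -0.16 unexposed, -0.11 (0.5 h), -0.27 (2 h), -0.13 (7 h) and -0.13 (21 h). As ratios these medians were 0.686, 0.777, 0.531, 0.737 and 0.742 of the median gene. The array at 2 h was the lowest and the array at 0.5 h the nearest to 0. On the unexposed array 65 of 73 members lay below 0, and on the later arrays 49, 68, 64 and 63. Among all genes, 19.5% lay below the member median at 0 h, and 35.7%, 14.6%, 22.6% and 25.1% at 0.5, 2, 7 and 21 h, so the members sat in the lower part of the distribution and well inside it. In RNA from whole cultures, fewer cells that carry a messenger and less of it per cell cannot be told apart.

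**Figure D1:**
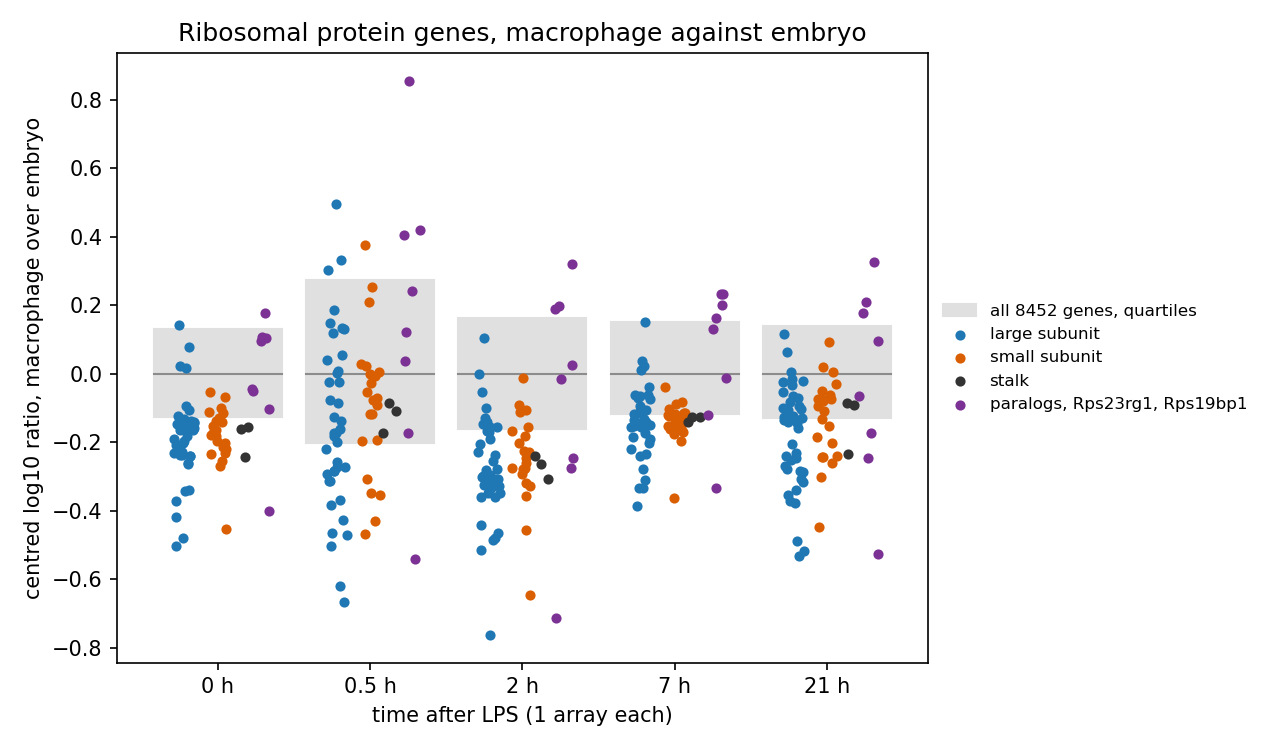
Centred log10 ratio of macrophage over embryo (vertical axis) for each of the 73 ribosomal protein genes, 1 point per gene, on the array of each time after LPS (horizontal axis, h). Grey boxes span the quartiles of all 8452 genes around their median at 0; the 6 paralogs, Rps23rg1 and Rps19bp1 are drawn apart from their subunits in purple. Most standard members form a band below 0 that is narrow at 0 and 7 h and wide at 0.5 h, and purple points make up much of the upper end.

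The sign held across arrays for most members. On all 5 arrays 43 of 73 members were below 0, where 24% of all genes were, and 4 were above 0, where 22.7% of all genes were. Leaving out the 0.5 h array, 60 members were below 0 on the other 4 arrays (29.8% of all genes), and 5 were above 0 (29.5%): Rpl10a, Rpl36al, Rpl7l1, Rps23rg1 and Rps27l. The remaining 8 changed sign between arrays: Rpl5, Rpl12, Rpl24, Rpl27, Rps2, Rps4x, Rps25 and Rps19bp1. Of the 65 members that are neither paralog, retrogene nor binding protein, 57 were below 0 on the 4 arrays and 1, Rpl10a, was above. All arrays share the embryo reference, so a sign that recurs is not independent evidence from 5 measurements.

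The displacement of single genes was mostly smaller than 2-fold. At 0 h, 8 members were lower than embryo by at least 2-fold, where 8.9% of all genes were: Rpl10, Rpl13, Rpl13a, Rpl17, Rpl22, Rpl39, Rpl3l and Rps19. The 2 h array had 27 such members (12.9% of all genes), the 7 h array 6 (8.02%), the 21 h array 12 (9.12%) and the 0.5 h array 16 (17%). In the other direction no member was higher by at least 2-fold at 0 h (8.99% of all genes) or 7 h (12.6%). Rpl36al alone was so at 2 h (13.4%) and at 21 h (9.67%). At 0.5 h 7 members were, where 23.4% of all genes were.

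The ratios of members spanned a narrower range than those of genes in general. More than 1 probe was averaged for 64 of the 73 members and for 2968 of the 8452 genes. Averaging narrows a range, and its part in this difference was not tested. The interquartile range of their ratios was 0.11 on the unexposed array, where that of all genes was 0.26. After LPS it was 0.32 against 0.48 (0.5 h), 0.17 against 0.32 (2 h), 0.069 against 0.27 (7 h) and 0.18 against 0.27 (21 h). The family was thus tightest at 7 h and widest at 0.5 h. The pooled SD between probes of the same member was 0.18, 0.47, 0.23, 0.19 and 0.23 on the 5 arrays, no smaller than the SD between members (0.13, 0.28, 0.18, 0.12 and 0.17). These SDs are of unlike quantities: the first is of single probes, the second of means over 1 to 12 probes (median 3). Averaging makes the second smaller, so the comparison cannot show whether members differ beyond the spread between probes. Across the 73 members the correlation with the 0 h array was 0.47, 0.90, 0.86 and 0.75 for the 4 exposed arrays in order of time, and over all genes it was 0.51, 0.88, 0.85 and 0.77. These are Pearson correlations over genes, which are no replicates and share the embryo reference.

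By subunit the medians were as follows. The median at 0 h was -0.16 for the 45 genes of the large subunit, -0.16 for the 25 of the small subunit and -0.16 for the 3 of the stalk. At 2 h the medians were -0.30, -0.23 and -0.26, and at 7 h -0.14, -0.12 and -0.13. No error of these medians is available from 1 array a time.

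The acidic stalk proteins recruit elongation factors to the ribosome. Rplp0, the base of the stalk, had ratios of -0.24 unexposed, -0.086 (0.5 h), -0.26 (2 h), -0.13 (7 h) and -0.092 (21 h). Rplp1 had -0.16 unexposed, -0.11 (0.5 h), -0.31 (2 h), -0.13 (7 h) and -0.23 (21 h), and Rplp2 had -0.16 unexposed, -0.17 (0.5 h), -0.24 (2 h), -0.14 (7 h) and -0.085 (21 h). All 3 were below 0 on all 5 arrays, as were 43 of the 73 members and 24% of all genes. Each of the 3 was at its lowest at 2 h. Rpl12, which anchors the stalk base, had 0.016 unexposed, 0.30 (0.5 h), -0.15 (2 h), 0.011 (7 h) and -0.064 (21 h) over 6 probes. It was near 0 on the unexposed array, and its probes at 0 h ran from -0.31 to 0.48.

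The rim of the tunnel exit, where chaperones and targeting factors meet the growing chain, was represented by 8 members (Rpl17, Rpl19, Rpl22, Rpl23a, Rpl26, Rpl31, Rpl35 and Rpl39). All 8 were below 0 on the 0, 2, 7 and 21 h arrays, as were 60 of the 73 members and 29.8% of all genes. The 8 had a median of -0.19 at 0 h and -0.32 at 2 h, beside -0.16 and -0.27 for the 73 members. Rpl39, a very small protein of the tunnel wall, had -0.37 unexposed, -0.22 (0.5 h), -0.48 (2 h), -0.33 (7 h) and -0.34 (21 h) over 5 probes. Its 5 probes at 0 h lay between -0.48 and -0.30, all below the member median. Rpl5 and Rpl11 travel with the 5S ribosomal RNA and can bind the p53 regulator Mdm2 when free. Rpl5 had -0.12 unexposed, 0.055 (0.5 h), -0.17 (2 h), -0.15 (7 h) and 0.0040 (21 h), and Rpl11 had -0.14 unexposed, -0.13 (0.5 h), -0.10 (2 h), -0.14 (7 h) and -0.10 (21 h). Rpl11 varied little between arrays, within -0.14 to -0.10.

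In the small subunit, Rps2, Rps3, Rps10 and Rps20 were grouped at the messenger entry side. Their median was -0.12 at 0 h, and all 4 were below 0 at 0, 2 and 7 h. On these arrays 65, 68 and 64 of the 73 members were below 0. Rps3, which lines the entry channel and also has roles outside the ribosome, had -0.13 unexposed, 0.25 (0.5 h), -0.17 (2 h), -0.089 (7 h) and -0.079 (21 h) over 9 probes. At the exit side, Rps26, which contacts the messenger upstream of the start codon, had -0.25 unexposed, -0.47 (0.5 h), -0.46 (2 h), -0.20 (7 h) and -0.45 (21 h), and Rps28 had -0.22 unexposed, -0.054 (0.5 h), -0.23 (2 h), -0.13 (7 h) and -0.15 (21 h). Rps26 was at least 2-fold below embryo at 0.5, 2 and 21 h and not at 0 and 7 h. Rps6, the small-subunit protein phosphorylated by the S6 kinases, had -0.24 unexposed, -0.12 (0.5 h), -0.28 (2 h), -0.11 (7 h) and -0.24 (21 h) over 6 probes, below 0 throughout. Rpsa, also known as the laminin receptor, had -0.12 unexposed, 0.21 (0.5 h), -0.11 (2 h), -0.039 (7 h) and -0.074 (21 h) over 6 probes and was above 0 at 0.5 h only.

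Further members of the large subunit, each read by 4 or more probes, are given as examples. Rpl41, the smallest ribosomal protein, was read by 12 probes and had -0.15 unexposed, 0.15 (0.5 h), -0.24 (2 h), -0.16 (7 h) and -0.24 (21 h). Rpl37, a zinc-binding protein, had -0.19 unexposed, 0.0020 (0.5 h), -0.25 (2 h), -0.14 (7 h) and -0.10 (21 h) over 8 probes. Rpl27a had -0.26 unexposed, -0.62 (0.5 h), -0.36 (2 h), -0.19 (7 h) and -0.25 (21 h) over 6 probes, with its 0.5 h value set by probes that ran from -2.11 to -0.047. In all 3 genes the mean of the probes at 0.5 h departed from the other 4 arrays, upwards in Rpl41 and Rpl37 and downwards in Rpl27a. In Rpl37 only 3 of 8 probes were higher than at 0 h, and its median probe difference was -0.036. Rpl4, which reaches into the exit tunnel, had -0.26 unexposed, -0.26 (0.5 h), -0.30 (2 h), -0.17 (7 h) and -0.28 (21 h) over 5 probes. Rpl32 had -0.22 unexposed, -0.27 (0.5 h), -0.32 (2 h), -0.14 (7 h) and -0.27 (21 h) and Rpl37a -0.11 unexposed, 0.13 (0.5 h), -0.13 (2 h), -0.072 (7 h) and -0.015 (21 h), each over 5 probes. Rpl4 and Rpl32 stayed below 0 on all 5 arrays, and Rpl37a lay nearer to 0 and above it at 0.5 h. Rpl8, near the centre that forms the peptide bond, had -0.16 unexposed, -0.18 (0.5 h), -0.16 (2 h), -0.12 (7 h) and -0.035 (21 h) over 4 probes. Rpl38, known from mouse mutants with changes of the axial skeleton, had -0.24 unexposed, -0.28 (0.5 h), -0.28 (2 h), -0.14 (7 h) and -0.14 (21 h) over 4 probes. Both were below 0 on every array.

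In the small subunit Rps16 had -0.21 unexposed, -0.026 (0.5 h), -0.25 (2 h), -0.15 (7 h) and -0.13 (21 h) over 8 probes. Rps24 had -0.20 unexposed, -0.091 (0.5 h), -0.32 (2 h), -0.18 (7 h) and -0.24 (21 h) over 7 probes. Rps13 had -0.10 unexposed, -0.12 (0.5 h), -0.20 (2 h), -0.11 (7 h) and -0.063 (21 h) and Rps21 -0.18 unexposed, -0.0082 (0.5 h), -0.28 (2 h), -0.13 (7 h) and -0.073 (21 h), each over 6 probes. These 4 genes were below 0 on all 5 arrays, and each was lowest at 2 h. Rps3a1 had -0.14 unexposed, 0.021 (0.5 h), -0.28 (2 h), -0.12 (7 h) and -0.11 (21 h) over 5 probes, and Rps7 had -0.18 unexposed, -0.20 (0.5 h), -0.26 (2 h), -0.17 (7 h) and -0.094 (21 h) over 4. Rps7 was below 0 throughout, and Rps3a1 was at its highest at 0.5 h, just above 0.

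The members at the lower end were named by their mean over all 5 arrays, given with the SD over the 5 arrays, which holds the differences between times. Rpl3l, the paralog of Rpl3 known from heart and skeletal muscle, averaged -0.50 ± 0.15 on 1 probe. Rpl13 averaged -0.48 ± 0.18, with -0.50 unexposed, -0.31 (0.5 h), -0.76 (2 h), -0.31 (7 h) and -0.49 (21 h). Both genes were below 0 on all 5 arrays. Rps19, whose human counterpart is mutated in Diamond-Blackfan anaemia, averaged -0.43 ± 0.14, with -0.45 unexposed, -0.43 (0.5 h), -0.65 (2 h), -0.36 (7 h) and -0.26 (21 h). In Rpl13 and Rps19 1 probe set the value: at 0 h the 4 probes of Rpl13 ran from -1.43 to -0.14 and the 3 of Rps19 from -0.87 to -0.21. With the median probe in place of the mean, their averages over the 0, 2, 7 and 21 h arrays were -0.23 and -0.18 instead of -0.52 and -0.43, close to the family median. Rpl22, which is also known for binding a viral RNA and for a role in T cell development, averaged -0.45 ± 0.079. Rpl13a, known from interferon-treated human monocytes as part of a translation-silencing complex, averaged -0.44 ± 0.12, with -0.48 unexposed, -0.50 (0.5 h), -0.46 (2 h), -0.23 (7 h) and -0.53 (21 h). It was nearest to 0 at 7 h.

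At the upper end, Rpl36al averaged 0.24 ± 0.092, with 0.10 unexposed, 0.24 (0.5 h), 0.32 (2 h), 0.20 (7 h) and 0.33 (21 h). All 5 arrays lay above 0 as a mean of 2 probes, and these probes stood apart at 0 h, at -0.016 and 0.22. Rps23rg1, a retrogene derived from Rps23, averaged 0.18 ± 0.040 over 6 probes, with 0.18 unexposed, 0.12 (0.5 h), 0.20 (2 h), 0.23 (7 h) and 0.18 (21 h). Its probes at 0 h ran from -0.0093 to 0.60, with an SD between probes of 0.24, and at 2 h 3 of the 6 lay below 0. The ± of 0.040 is over arrays and holds no spread between probes. The parent gene was not analysed here. Rps27l, a paralog of Rps27 known as a p53 target, averaged 0.11 ± 0.080 over 11 probes, and Rpl10a 0.10 ± 0.049 on 1 probe, with 0.14 unexposed, 0.040 (0.5 h), 0.10 (2 h), 0.15 (7 h) and 0.062 (21 h). Rpl39l, a paralog of Rpl39 known from testis, averaged 0.10 ± 0.43 on 1 probe, with -0.045 unexposed, 0.86 (0.5 h), -0.25 (2 h), -0.013 (7 h) and -0.064 (21 h). It was above 0 at 0.5 h alone.

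**Figure D2:**
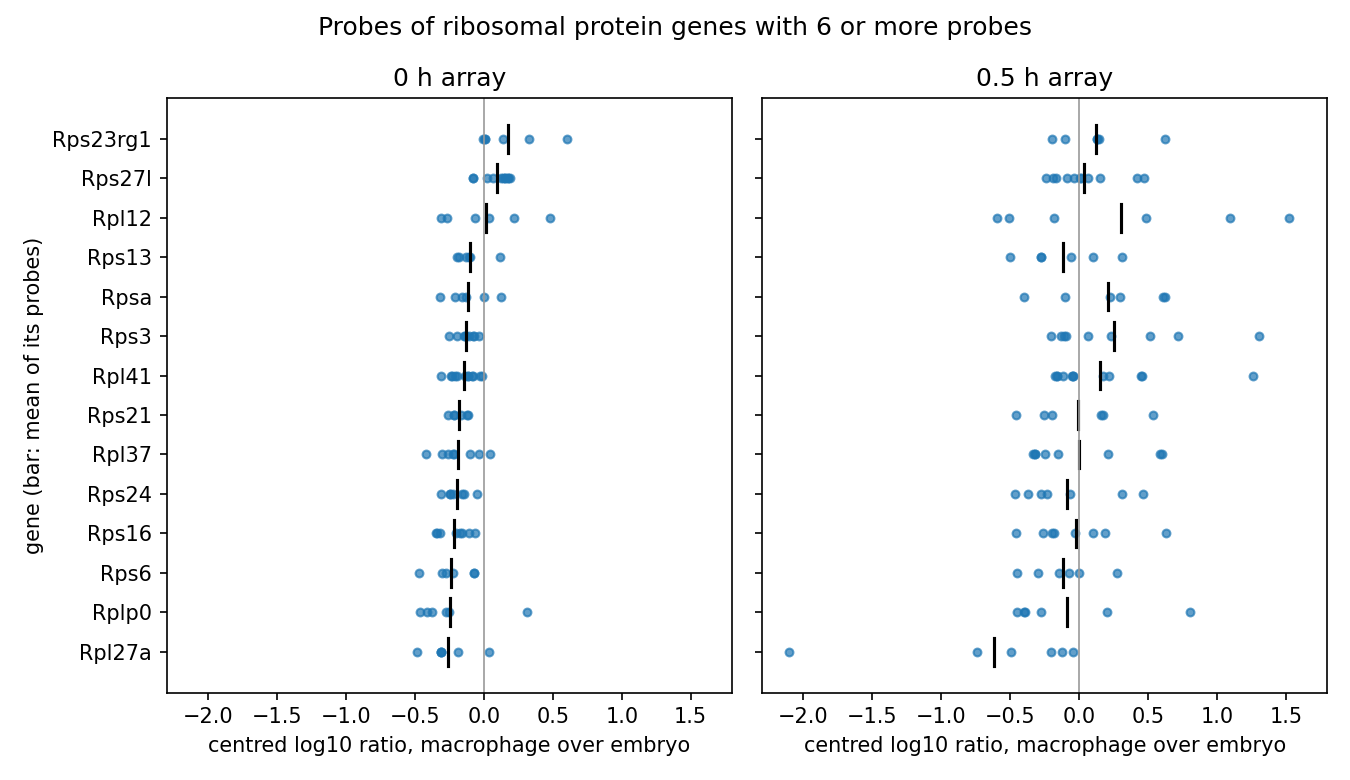
Centred log10 ratio (horizontal axis) of single probes, as points, for the 14 ribosomal protein genes with 6 or more probes (vertical axis), on the 0 h array and on the 0.5 h array. Black bars mark the mean of each gene's probes. The median range between the lowest and highest probe of a gene was 0.357 at 0 h and 1.01 at 0.5 h.

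The paralogs were set beside the genes they are named for, because they are related in sequence and several stood at the upper end of the family. The starts of 4 of the 6 pairs are given in the same format as above.
Rps27, chr3:90213634-90213663, minus strand: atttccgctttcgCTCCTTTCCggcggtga
Rps27l, chr9:66946071-66946100, plus strand: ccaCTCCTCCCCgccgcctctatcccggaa
Rpl36a, chrX:134585639-134585668, plus strand: gtgcacccaggcaccgcctataaacttccg
Rpl36al, chr12:69184053-69184082, minus strand: cattcccgtcgctcaggttcagttccgact
Rpl22, chr4:152325711-152325740, plus strand: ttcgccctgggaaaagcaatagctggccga
Rpl22l1, chr3:28805493-28805522, plus strand: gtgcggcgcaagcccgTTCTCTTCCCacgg
Rpl39, chrX:37085208-37085237, minus strand: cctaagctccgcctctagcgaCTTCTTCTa
Rpl39l, chr16:10170213-10170242, plus strand: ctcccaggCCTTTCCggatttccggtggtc
Rps27 and Rps27l both have a run. Rpl36a and Rpl36al have none in this window, Rpl22l1 has one where Rpl22 has none, and Rpl39 and Rpl39l each have a run at a different place.

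In 5 of 6 pairs the paralog had the higher macrophage over embryo ratio on average, and Rpl3l was the exception. Only 19.5%, 14.6%, 22.6% and 25.1% of all genes lay below the member median at 0, 2, 7 and 21 h. Most genes thus lay above a typical member, and 5 of 6 is not shown to be particular to paralogs. Averaged over the 0, 2, 7 and 21 h arrays, Rps27l exceeded Rps27 by 0.25 ± 0.032 (SD over these 4 arrays). The excess was 0.29 ± 0.044 for Rpl22l1 over Rpl22, 0.29 ± 0.044 for Rpl39l over Rpl39, 0.28 ± 0.18 for Rpl7l1 over Rpl7 and 0.45 ± 0.15 for Rpl36al over Rpl36a. Rpl3l minus Rpl3 was -0.29 ± 0.15. These are differences between ratios to embryo, not between amounts of the messengers, which these arrays do not give.

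In the 4 pairs with at least 2 probes for each gene, the probe ranges of paralog and standard gene did not overlap at 0 h and at 7 h. Most of these genes have 2 to 4 probes, and ranges of so few probes separate easily. The share of other gene pairs without overlap was not computed. Rpl3 and Rpl3l, with 1 probe each, have no range, and the 1 probe of Rpl39l lay above all 5 probes of Rpl39 on every array. Among the 4 pairs, at 0.5 h the ranges of Rpl7l1, Rpl36al and Rps27l overlapped those of their partners, at 2 h those of Rpl22l1 and Rps27l did, and at 21 h those of Rpl7l1 and Rps27l did. Rps27l had 0.10 unexposed, 0.036 (0.5 h), 0.024 (2 h), 0.16 (7 h) and 0.21 (21 h), and Rps27 over 3 probes had -0.15 unexposed, -0.0025 (0.5 h), -0.18 (2 h), -0.12 (7 h) and -0.052 (21 h). The paralog was the higher on all 5 arrays, by as little as 0.039 at 0.5 h. Rpl22 had -0.34 unexposed, -0.47 (0.5 h), -0.52 (2 h), -0.39 (7 h) and -0.52 (21 h), and Rpl22l1 had -0.049 unexposed, 0.40 (0.5 h), -0.28 (2 h), -0.12 (7 h) and -0.17 (21 h). Here too the paralog was higher on all 5 arrays, and the gap was widest at 0.5 h. Rpl36a had -0.24 unexposed, 0.50 (0.5 h), -0.32 (2 h), -0.13 (7 h) and -0.16 (21 h). It exceeded Rpl36al at 0.5 h and lay below it on the other 4 arrays. Rpl7 had -0.15 unexposed, 0.19 (0.5 h), -0.35 (2 h), -0.073 (7 h) and -0.024 (21 h), and Rpl7l1 had 0.11 unexposed, -0.17 (0.5 h), 0.19 (2 h), 0.13 (7 h) and 0.095 (21 h), again with the order turned at 0.5 h alone. Rpl3 had -0.23 unexposed, -0.16 (0.5 h), -0.23 (2 h), -0.16 (7 h) and -0.21 (21 h), and Rpl3l had -0.40 unexposed, -0.54 (0.5 h), -0.71 (2 h), -0.33 (7 h) and -0.53 (21 h). Rpl3l was the lower on all 5 arrays.

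**Figure D3:**
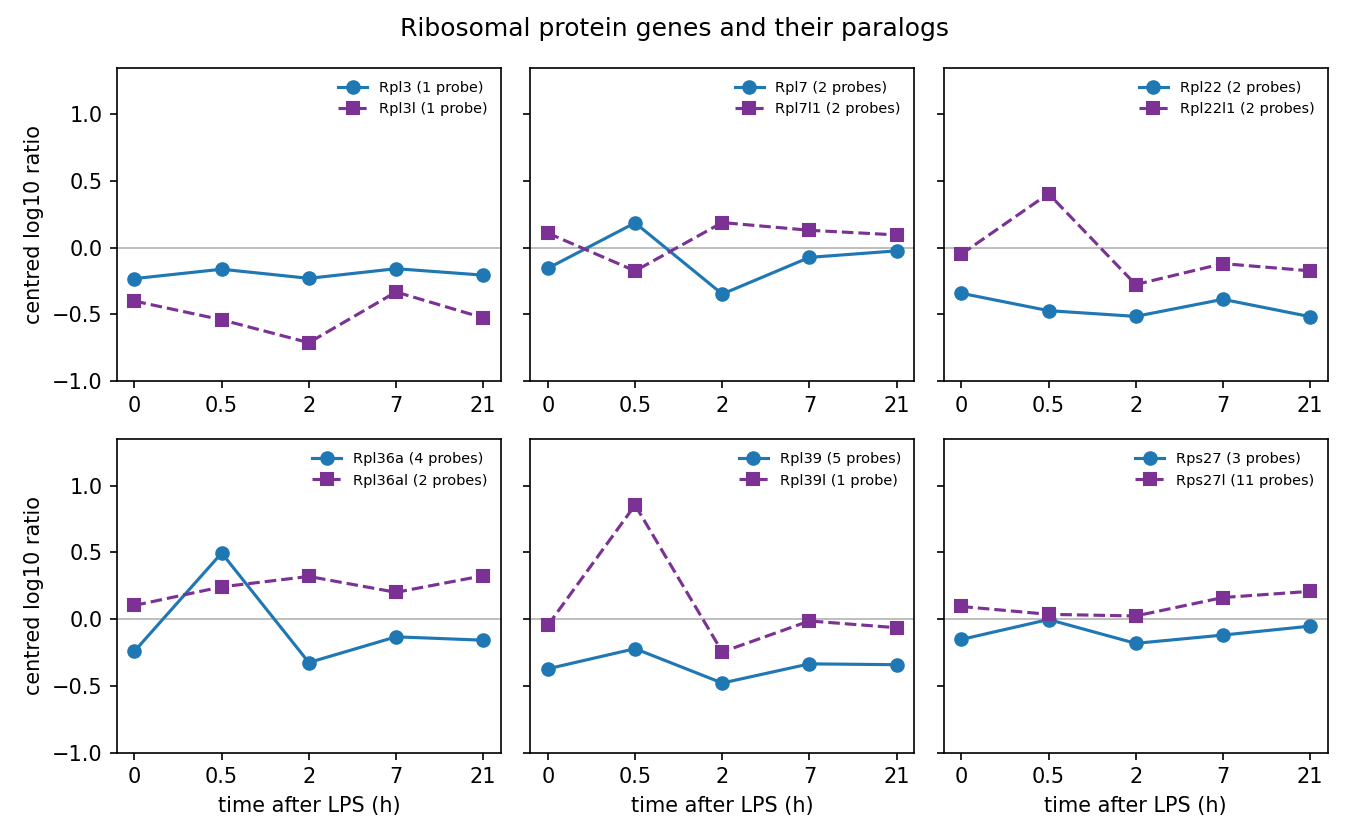
Centred log10 ratio (vertical axis) against time after LPS (horizontal axis, h, categories not to scale) for 6 pairs of a standard ribosomal protein gene (solid blue) and its paralog (dashed purple), 1 array per time, with the number of probes in the legends. The paralog lies above its partner at 0, 2, 7 and 21 h in 5 pairs, and Rpl3l lies below Rpl3 at every time.

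Differences from the unexposed array came next. At every time these subtract the same 0 h array, so a deviation of that array enters all of them. The median difference of the members was 0.053 (0.5 h), -0.074 (2 h), 0.049 (7 h) and 0.030 (21 h), and that of all genes -0.014 (0.5 h), -0.012 (2 h), 0.022 (7 h) and 0.0030 (21 h). The pooled SD between probes in a member's difference, the error of a single probe and not of the median, was 0.43, 0.11, 0.11 and 0.16.

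**Figure D4:**
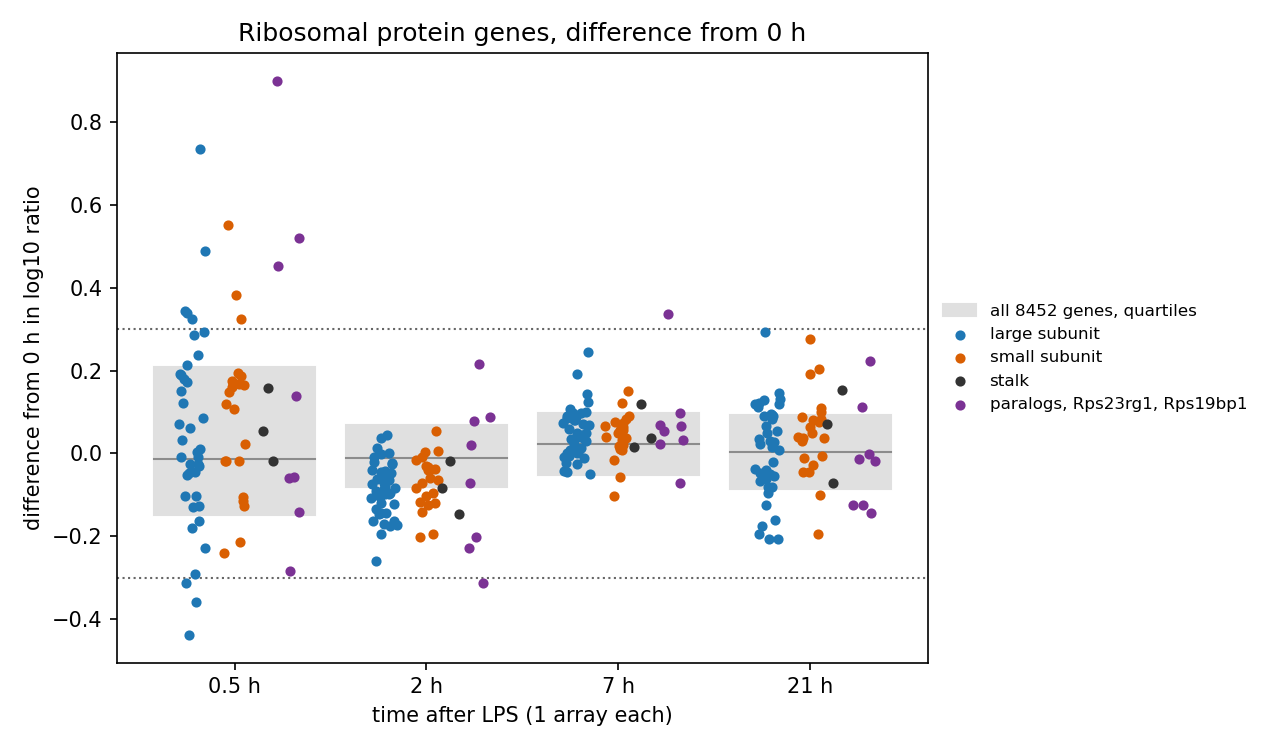
Difference from the 0 h array in centred log10 ratio (vertical axis) for each of the 73 ribosomal protein genes, 1 point per gene, at 4 times after LPS (horizontal axis, h). Grey boxes span the quartiles of all 8452 genes around their median, and dotted lines mark the 2-fold size rule. The points scatter past both dotted lines at 0.5 h, lie mostly below 0 at 2 h and mostly above 0 at 7 h.

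At 0.5 h the members split. Of 73 members 41 were above their 0 h value and 32 below it, where 47.7% and 52.3% of all genes were. Past the size rule, 11 members were higher, where 19.9% of all genes were, and 3 were lower, where 10.6% were. The highest were Rpl39l at 0.90 (1 probe), Rpl36a at 0.74 ± 0.56 (SD over 4 probes) and Rps29 at 0.55 ± 1.24 (SD over 2 probes). The others were Rps19bp1 at 0.52 ± 0.38 (SD over 2 probes), Rpl26 at 0.49 ± 0.47 (SD over 2 probes), Rpl22l1 at 0.45 ± 0.67 (SD over 2 probes), Rps3 at 0.38 ± 0.53 (SD over 9 probes), Rpl7 at 0.34 ± 0.72 (SD over 2 probes), Rpl9 at 0.34 ± 0.51 (SD over 5 probes), Rpl14 at 0.32 ± 0.64 (SD over 4 probes) and Rpsa at 0.32 ± 0.34 (SD over 6 probes). The lower ones were Rpl21 at -0.44 ± 1.04 (SD over 3 probes), Rpl27a at -0.36 ± 0.72 (SD over 6 probes) and Rpl27 at -0.31 ± 0.40 (SD over 3 probes). None of these 3 stayed past the size rule under scaling by the median absolute deviation, where 11 members were higher and 0 lower, or after loess, where 13 were higher and 0 lower. Under scaling Rpl21 was at -0.20, Rpl27a at -0.12 and Rpl27 at -0.23. The shares of all genes past the size rule under scaling and loess were not computed.

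For most of these the SD between probes exceeded the difference. Among the 44 members with at least 3 probes, all probes of a gene were higher in 1 (Rpl36a) and lower in 2 (Rpl27 and Rps26). Of single probes 120 were higher and 151 lower. Such probe counts were not made over all genes, here or at the later times. Against the median of all genes, the member median lay 0.067 higher. Joined by the median probe of each gene, the member median was -0.0087 in place of 0.053, which lay 0.012 above that of all genes. In 16 of 50 stretches of 400 probe numbers, the 0.5 h array followed the later arrays with a correlation of at least 0.7. In these, 82 probes of 53 members gave a median of -0.10, beside -0.052 for the 4159 genes read there. Past the size rule 1 of these members was higher and 5 were lower, where 13.7% and 10.3% of the genes read there were. These stretches were chosen after seeing the data. Quantile normalization, scaling by the median absolute deviation and removal of a loess trend put the member median 0.12, 0.12 and 0.17 above that of all genes. Relative to all genes the sign at 0.5 h was thus positive in these settings and negative in the chosen stretches (-0.050).

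At 2 h most members were slightly lower than at 0 h. Of the 73, 62 were below 0 h, where 54.4% of all genes were, and 11 above it, where 45.6% were. The member median lay 0.062 below that of all genes. The large subunit had a median difference of -0.085, the small subunit -0.058 and the stalk -0.084. All 8 tunnel exit members were lower, with a median of -0.12. Of 271 probes 195 were lower, and all probes of a gene were lower in 12 of 44 members with 3 or more probes (Rpl9, Rpl12, Rpl13, Rpl14, Rpl21, Rpl34, Rpl36a, Rplp2, Rps3a1, Rps4x, Rps19 and Rps26), and higher in none of the 44. Without the same count over all genes, this agreement is not shown to be particular to the members.

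Past the size rule at 2 h, 1 member was lower, where 2.58% of all genes were: Rpl3l at -0.31 (1 probe). It did not pass after quantile normalization (-0.17), scaling by the median absolute deviation (-0.21) or loess (-0.17). No member was higher, where 4.24% of all genes were. The next lowest were Rpl13 at -0.26 ± 0.27 (SD over 4 probes) and Rpl22l1 at -0.23 ± 0.20 (SD over 2 probes). The highest were Rpl36al at 0.22 ± 0.18 (SD over 2 probes), Rps19bp1 at 0.088 ± 0.17 (SD over 2 probes) and Rpl7l1 at 0.080 ± 0.076 (SD over 2 probes). None of these 3 is a standard subunit gene.

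The array at 2 h also had a wider range of ratios for all genes, with an SD of 0.36 against 0.27 at 0 h. Embryo tissue markers (16 measured) had a median difference of -0.15 at 2 h, erythroid markers (9 measured) -0.16 and macrophage markers (8 measured) 0.17. Their part in the result was not tested. With the arrays brought to one distribution by quantile normalization, the member median lay 0.025 below that of all genes. Scaled to one median absolute deviation it lay 0.030 below, and with a loess trend on the mean ratio removed 0.015 below, all nearer to 0 than in the main setting. The number of members below the all-gene median was 59 in the main setting and 48, 49 and 47 under these alternatives.

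At 7 h most members were slightly higher than at 0 h. Of the 73, 61 were above 0 h, where 58.1% of all genes were, and 12 below, where 41.9% were. The member median lay 0.027 above that of all genes, and this gap was 0.026 under quantile normalization, under scaling and after loess. Among single probes 183 were higher and 88 lower, and all probes of a gene were higher in 8 of 44 members (Rpl8, Rpl13, Rpl19, Rpl27a, Rpl38, Rplp0, Rps4x and Rps26) and lower in none of the 44. These probe counts, too, have no share over all genes beside them. Past the size rule, 1 member was higher, where 3.35% of all genes were: Rps19bp1 at 0.34 ± 0.43 (SD over 2 probes), a difference smaller than its probe SD. No member was lower, where 1.4% of all genes were. The next highest were Rpl13a at 0.25 ± 0.012 (SD over 2 probes) and Rpl13 at 0.19 ± 0.23 (SD over 4 probes). The lowest were Rps25 at -0.10 ± 0.052 (SD over 2 probes) and Rpl22l1 at -0.071 ± 0.094 (SD over 2 probes). Rps4x, an X-linked gene of the small subunit, was at 0.15 ± 0.046 (SD over 4 probes), with all 4 probes higher. Embryo tissue markers (16 measured) had a median difference of 0.10 at 7 h, erythroid markers (9 measured) 0.029 and macrophage markers (8 measured) -0.036. Their part in the shift of the members was not tested.

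The pattern of lower at 2 h and higher at 7 h than at 0 h was met by 51 of 73 members and by 31.6% of all genes. For 53 members the 2 h array was the lowest of the 0, 2, 7 and 21 h arrays, as it was for 33.3% of all genes. Both differences subtract the 0 h array, and each time is 1 array. Neither count was repeated under the other scalings. Under quantile normalization, scaling and loess the 2 h member median lay 0.025, 0.030 and 0.015 below that of all genes. In the main setting it lay 0.062 below.

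At 21 h the family was again split. Of the 73, 42 were above 0 h and 31 below, where 50.9% and 49.1% of all genes were. The median was 0.030. No member passed the size rule, where 4.33% of all genes were higher and 4.69% lower. Rpl10, whose protein joins the large subunit late in its maturation, came nearest at 0.29 ± 0.066 (SD over 2 probes). Its ratios against embryo were -0.42 unexposed, -0.43 (0.5 h), -0.44 (2 h), -0.33 (7 h) and -0.13 (21 h), level on the first 3 arrays and nearest to 0 on the last. Rps4x followed at 0.28 ± 0.18 (SD over 4 probes), with ratios of -0.27 unexposed, -0.077 (0.5 h), -0.33 (2 h), -0.12 (7 h) and 0.0054 (21 h). Rpl36al was at 0.22 ± 0.14 (SD over 2 probes) and Rps2 at 0.20 ± 0.11 (SD over 4 probes), in both with all probes higher. The lowest were Rpl28 at -0.21 (1 probe), Rpl24 at -0.21 ± 0.065 (SD over 2 probes) and Rpl26 at -0.19 ± 0.14 (SD over 2 probes). Rpl24 forms part of a bridge between the subunits, and its ratio went from 0.077 at 0 h to -0.13 at 21 h. All probes of a gene were higher in 6 of 44 members (Rpl23, Rpl27, Rplp0, Rps2, Rps4x and Rps19) and lower in 2 (Rpl34 and Rps26), with no such share computed over all genes.

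Other genes of the translation apparatus were read as fixed lists. Of 20 further genes whose messengers carry the terminal pyrimidine motif, such as elongation and initiation factors, 17 were measured, with median ratios of -0.068 unexposed, 0.060 (0.5 h), -0.12 (2 h), -0.044 (7 h) and -0.022 (21 h). These medians lay nearer 0 than those of the ribosomal proteins on all 5 arrays. From 0 h, 3 were higher past the size rule at 0.5 h (Eef1a1 at 0.97, Eif3e at 0.33 and Eef2 at 0.31), near the 19.9% of all genes that were so. The counts were none of the 17 at 2 or 7 h in either direction, and 1 at 21 h (Eif3f at 0.36). Their median difference was -0.060 at 2 h and 0.080 at 7 h. Of 39 ribosome biogenesis factors, which process ribosomal RNA and assemble the subunits, 31 were measured. Their median ratio was above 0 on all 5 arrays, at 0.061, 0.077, 0.049, 0.12 and 0.025. Past the size rule 5 were higher and 3 lower at 0.5 h, where 19.9% and 10.6% of all genes were, 1 lower at 2 h (Ddx21 at -0.46), none of the 31 at 7 h, and 1 higher (Nop58 at 0.33) and 1 lower (Ddx21 at -0.48) at 21 h. Ddx21, a helicase of the nucleolus, was read by 1 probe with a ratio of -1.38 at 0 h. Of 17 genes of S6 kinases and the mTOR pathway 9 were measured. At 0.5 h 1 was higher (Akt1s1 at 0.41), where 19.9% of all genes were. None of the 9 passed the size rule at 2 and 7 h. At 21 h 1 was higher (Rheb, the small GTPase that activates mTOR, at 0.47 on 1 probe). For each list, the shares of all genes higher past the size rule were 4.24%, 3.35% and 4.33% at 2, 7 and 21 h. The shares lower were 2.58%, 1.4% and 4.69%.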

How the data were processed

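Per the labels, total RNA of macrophages and of whole embryo was labelled by an indirect amino-allyl method for two-colour cDNA arrays. The deposited table holds 1 log ratio per probe and array, read here as log10; base, centring and direction are stated in none of the sources used here. The base was judged from 55 globin probes (median -1.46 at 0 h). For the scanner and the authors' normalization, details were not given in the sources used here. Spot signals were not used, and signal over background is unknown. Precision is limited by having 5 arrays.

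Among the 19828 probes, 14759 had 1 symbol, 170 several and 4899 none; 14628 of the probes with 1 symbol matched RefSeq (GRCm38.p6). Some ribosomal protein genes are not reported here. Probes with a missing value were left out, arrays were centred on the median of 8452 genes, and probes were averaged per gene. The rule for naming took members past 2-fold or, failing these, the 2 highest and 2 lowest differences per time, the 5 highest and lowest mean ratios, members with 3 or more probes as counts and examples, stalk genes, Rpsa and paralog pairs; some third-ranked genes, Rps2, Rps4x and role examples were named after their values were seen. Members, lists and rules were chosen with earlier results of these data known. Alternatives were other centring, scaling, probe joining, missing-value handling, log base, baseline and size rule. Steps were tested on simulated data. Tools were Python 3.11.15, statsmodels 0.14.6, pandas 2.3.3, numpy 2.4.6, scipy 1.17.1 and matplotlib 3.10.9.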

Additional observations from a re-analysis of the deposited data

Results flagged for a closer look

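The median difference of the ribosomal protein genes from 0 h, taken against the median of all genes, had opposite signs at different times. It was 0.067 at 0.5 h and -0.062 at 2 h, values 0.13 apart. Between 2 h (-0.062) and 7 h (0.027) the distance was -0.089, and between 2 h and 21 h (0.027) it was also -0.089. These differences were not tested, because each time is 1 array, and all of them subtract the same 0 h array.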

How the results depend on the processing

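The member median against embryo kept its sign under every alternative run for it. For the 4 times, 14, 1, 1 and 0 members passed the size rule. Under the alternatives, shares of all genes were computed only for the chosen stretches of probes. The other counts below thus describe the members alone. Quantile normalization gave 8 at 0.5 h, 0 at 2 h and 3 at 21 h. Scaling to one median absolute deviation gave 0 at 2 h and 2 at 21 h, and loess gave 0 at 2 h and 1 at 21 h; both left 0 lower at 0.5 h, where the main setting had 3. Reading the values as log base 2 gave 0 at 0.5 h, 0 at 2 h and 0 at 7 h. A 1.5-fold rule gave 29, 8, 3 and 9, by construction more. Members with at least 2 probes gave 0 at 2 h, and without paralogs and binding proteins there were 0 at 2 h and 0 at 7 h, since Rpl3l or Rps19bp1 was left out. The median probe gave 1 at 21 h and turned the 0.5 h median to -0.0087, with that of all genes at -0.021. The 0.5 h array as baseline gave 17, 13 and 17 at 2, 7 and 21 h and turned the 21 h median to -0.044, Rps19bp1 to -0.43 at 2 h and -0.18 at 7 h. Stretches of probes chosen after seeing the data gave 6 at 0.5 h and a median of -0.10, with that of all genes at -0.052. Values on the compared arrays alone turned Rpl22l1 at 7 h to 0.0093. Beyond what is said here, the cause was not tested. No paired analysis was possible because each group held 1 array and the labels carry no replicate numbers. Of the values of named genes and pairs under alternatives, 217 kept their sign and shifted by less than the pooled SD between probes. A further 16 kept their sign and shifted by more, and 3 reversed sign. The side of the size rule was not part of this count. Some of the 217 were fixed in advance. The median probe equals the mean for genes with 1 or 2 probes, and centring cannot change a paralog's difference from its partner. At 0.5 h the SD allowed was 0.43, so large shifts were also let through. Of the member medians and counts, 68 stayed within the SD or within 1.5-fold of the main count. A further 22 did not, and 3 medians reversed sign.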
